A study of Gallus gallus with 2 samples.

Results

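The genes of WNT signalling were followed through 2 single cell libraries of the developing chick retina. Their symbols were those of the WNT ligands, Frizzled receptors, LGR4 to LGR6, LRP5, LRP6, R-spondins, secreted Frizzled-related proteins, Dickkopf proteins and TCF/LEF factors, with AXIN1, AXIN2, CTNNB1, APC and FRZB. Of the 23967 genes in the count matrices, 54 had such a symbol. With 20 or more unique molecular identifiers (UMIs, which tag single transcripts) in both libraries together, 31 of them could be compared, and 14 had 300 or more.

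Retinas were electroporated ex vivo at embryonic day 5 and kept as explants for 48 h. The OTX2CRISPR retinas received a plasmid with Cas9 under the CAG promoter and guide 2 against OTX2, a homeobox gene needed for photoreceptors, and the CTRL retinas received the same plasmid without the target-specific part of the guide. Both also received OTX2ECR2::GFP, a reporter in which an OTX2 enhancer drives green fluorescent protein, and GFP-positive cells were sorted, so the libraries hold sorted cells and not whole retinas. Some cell types among them had little OTX2, such as multipotent progenitors, horizontal cells and ganglion cells. For these the study names past OTX2 expression, inappropriate activity of the enhancer or inadvertent collection as possible reasons. Retinas of several female embryos were pooled in each library, the number being given differently in different places of the source, and each embryo gave an eye to either library.

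A WNT ligand binds a Frizzled receptor together with LRP5 or LRP6 at the cell surface. This stops the destruction complex of APC and AXIN from marking beta-catenin, the product of CTNNB1, for degradation, and beta-catenin then acts with TCF/LEF factors on target genes. R-spondins raise the response through LGR4, LGR5 or LGR6, while secreted Frizzled-related proteins and Dickkopf proteins act outside the cell as inhibitors or modulators. In the vertebrate eye the pathway is known for its part in forming the ciliary margin and the pigment epithelium and in the choice between dividing and differentiating progenitors.

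After the cell filter the CTRL library held 5073 cells and 14773938 UMIs, with a median of 2779 UMIs per cell, and the OTX2CRISPR library held 4928 cells and 13206843 UMIs, with a median of 2566. Levels are UMIs summed over a class or a library, per 1000000 UMIs there (CPM). With 1 library per condition no test across samples was possible, so no p-value is given. All intervals are 95% exact intervals, Poisson for levels, conditional binomial for log2 ratios and Clopper-Pearson for shares, and they cover counting error only. A ratio of at least 2-fold, a log2 ratio of 1, is called past the fold. UMIs come from transcript 3′ ends, so a level is compared between cells and not between genes. The libraries shared 38 cell barcodes.

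Cells were clustered without using any of these genes, and clusters were named from marker genes (RPC, retinal progenitor cell; PR, photoreceptor; PC, precursor cell; HC, horizontal cell; RGC, retinal ganglion cell; New, a group named after SPIK2, BRINP2, SULF2, ERBB4, CRABP1 and ONECUT3). The CTRL library had 340 multipotent RPC-like, 1286 restricted RPC-like, 925 cone homotypical PC-like, 905 cone PR1-like, 577 cone PR2-like, 89 HC1-like, 436 HC2-like, 154 RGC-like and 28 New-like cells. The OTX2CRISPR library had 311, 539, 42, 37, 29, 522, 210, 541 and 1776 cells of these classes. A mixed cluster of 333 CTRL and 921 OTX2CRISPR cells stayed unnamed. Most of its OTX2CRISPR cells, but few of its CTRL cells, took the name restricted RPC-like in a finer clustering. Classes with under 50 cells in a library were given no level there. OTX2 itself had levels of 1745 and 761 CPM in the CTRL and OTX2CRISPR libraries, but its 3′ tags lie away from the cut and do not check the mutation. RBP4, a gene of the cones, was at 4176 CPM and 182 CPM, and it differed between the libraries also outside cones, with 672 CPM in CTRL against 28.1 CPM in OTX2CRISPR multipotent RPC-like cells. The part of cone RNA in other cells in the comparisons between libraries was not tested.

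**Figure D1:**
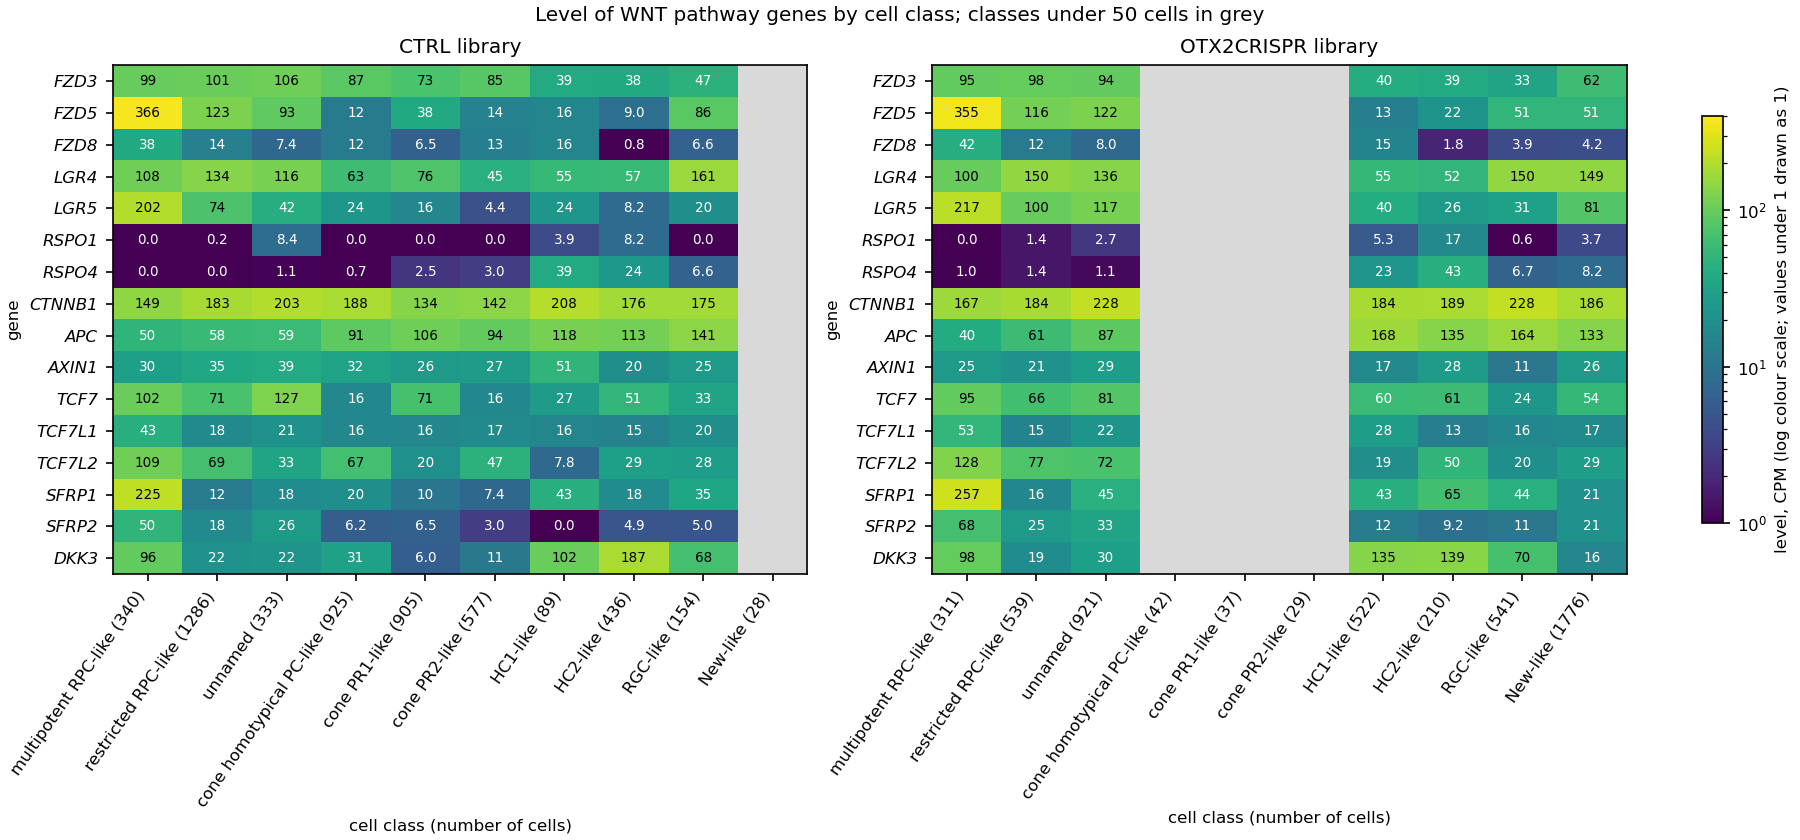
Levels of 16 WNT pathway genes (rows) in each cell class (columns, with cell numbers) of the CTRL library (left) and the OTX2CRISPR library (right). Colour gives the level in CPM on a log scale and the digits give its value; grey columns are classes with under 50 cells. FZD5, SFRP1 and LGR5 are highest in the multipotent RPC-like column of both libraries, at 366, 225 and 202 CPM in CTRL.

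Few UMIs of WNT ligands were found in these cells. Frizzled receptors gave 3050 UMIs in CTRL and 2562 in OTX2CRISPR, LGR receptors gave 2211 and 2970, beta-catenin with APC and the axins gave 4340 and 4551, and TCF/LEF factors gave 1943 and 1723. The 19 WNT ligand genes together gave 64 and 44 UMIs, or 4.33 and 3.33 CPM. A total of 9 ligand genes, WNT2B, WNT3, WNT3A, WNT6, WNT7A, WNT7B, WNT9B, WNT10A and WNT11B, had no UMI in either library. For scale, 3 counts would be 0.203 CPM in CTRL and 0.227 CPM in OTX2CRISPR. WNT5A, a ligand best known for signalling without beta-catenin, had 33 and 21 UMIs and WNT11 had 13 and 9, and the other 8 detected ligands had at most 11 UMIs over both libraries. LEF1, the TCF/LEF factor named after lymphoid cells, had 9 and 5 UMIs, DKK1 had 4 and 4, and DKK2 had 3 and 2. At this depth these counts describe detection and not differences between cells.

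The ligand UMIs were densest in multipotent RPC-like cells of the CTRL library. These cells held 18 ligand UMIs, or 16.1 CPM (9.56 to 25.5), against 5.17 CPM (3.24 to 7.83) in restricted RPC-like cells. Cone PR2-like cells had 7.42 CPM (3.56 to 13.6). In the OTX2CRISPR library multipotent and restricted RPC-like cells held 5 and 3 ligand UMIs, at 5.20 CPM (1.69 to 12.1) and 2.14 CPM (0.441 to 6.25). The log2 ratio of OTX2CRISPR over CTRL for the ligand sum was -1.63 (-3.42 to -0.15) in multipotent RPC-like cells and -1.27 (-3.66 to 0.46) in restricted RPC-like cells. In the unnamed cluster it went the other way, from 1 UMI in CTRL to 11 in OTX2CRISPR, at 1.99 (-0.80 to 7.41). Most of these OTX2CRISPR cells were restricted RPC-like in a finer clustering, and the restricted ratio leaves them out. New-like cells of OTX2CRISPR held 19 ligand UMIs, at 4.19 CPM (2.52 to 6.54). All these ratios rest on few UMIs.

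Multipotent RPC-like cells were the class in which the pathway genes most often had their highest level. Of 30 genes with at least 20 UMIs in CTRL, 12 were highest there, and 12.6% of all genes measured at the same minimum were. In OTX2CRISPR it was 12 of 29, beside 19.2% of all genes, and 11 genes were on both lists: FZD5, FZD8, LGR5, LRP5, LRP6, SFRP1, SFRP2, TCF7, TCF7L1, TCF7L2 and WNT5A. The lists cover receptors, co-receptors, secreted inhibitors and TCF factors. Not every ranking was clear of counting error. LRP6 in CTRL was at 14.3 CPM in multipotent RPC-like and 11.8 CPM in HC1-like cells. WNT5A in OTX2CRISPR was highest from 4 UMIs, at 4.16 CPM against 2.21 CPM in New-like cells. The unnamed cluster was left out of this ranking, and TCF7 was higher in it than in any named class of the CTRL library, at 127 CPM (105 to 151).

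FZD5, a Frizzled receptor required for normal eye development in the mouse, was at 366 CPM (331 to 403) in CTRL and 355 CPM (318 to 395) in OTX2CRISPR multipotent RPC-like cells. In restricted RPC-like cells it was at 123 CPM (113 to 134) and 116 CPM (98.5 to 135). Its level was lower in every other named class, from 8.97 CPM in HC2-like cells to 86.4 CPM in RGC-like cells of the CTRL library. After each cell was thinned to 1000 UMIs, 29.2% of multipotent RPC-like cells had a FZD5 UMI in both libraries, against 11.9% (10.2 to 13.8%) and 10.1% (7.68 to 13.0%) of restricted RPC-like cells. In CTRL HC2-like cells, the class with the lowest share, it was 0.234% (0.00592 to 1.29%). Without thinning the CTRL shares were 59.7%, 30.2% and 2.52%, at median depths of 3279.5, 3202 and 2725 UMIs.

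The other well-measured Frizzled receptors had different profiles. FZD8 was at 37.6 CPM (27.1 to 50.9) in CTRL and 41.6 CPM (29.7 to 56.7) in OTX2CRISPR multipotent RPC-like cells, and at 13.6 and 12.1 CPM in restricted RPC-like cells. FZD3, a receptor known for axon guidance and planar polarity in the mouse, was at 98.6 CPM (81.0 to 119) in multipotent and 101 CPM (91.9 to 111) in restricted RPC-like cells of CTRL, levels that counting error does not separate. It remained at 73.0 to 86.8 CPM in the cone classes and was at 38.3 to 46.5 CPM in horizontal and ganglion cell classes of CTRL. The cone classes joined had a FZD3 level of 81.9 CPM (75.0 to 89.3), below that of restricted RPC-like cells, while FZD5 and FZD8 were highest in multipotent RPC-like cells.

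SFRP1, a secreted inhibitor that binds WNT proteins, differed most between the progenitor classes among the well-measured genes. It was at 225 CPM (198 to 254) in multipotent and 11.8 CPM (8.72 to 15.5) in restricted RPC-like cells of CTRL, a log2 ratio of 4.26 (3.82 to 4.73). In the OTX2CRISPR library it was at 257 CPM (226 to 291) and 16.4 CPM (10.4 to 24.6), a log2 ratio of 3.97 (3.35 to 4.65). Multipotent RPC-like cells held 7.56% of all CTRL UMIs and 54.2% of the SFRP1 UMIs, and in OTX2CRISPR they held 7.28% and 38.2%. Its relative SFRP2 was at 50.2 CPM (37.9 to 65.1) and 67.6 CPM (52.2 to 86.2) in multipotent RPC-like cells and at 17.6 and 25.0 CPM in restricted RPC-like cells. DKK3, a divergent Dickkopf protein, was at 95.9 CPM (78.6 to 116) against 21.9 CPM (17.6 to 26.8) in CTRL and at 97.8 against 18.6 CPM in OTX2CRISPR.

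LGR5, a receptor for R-spondins that marks stem cells of the gut, was at 202 CPM (176 to 229.7) in multipotent and 74.5 CPM (66.5 to 83.1) in restricted RPC-like cells of CTRL. In OTX2CRISPR it was at 217 CPM (189 to 249) and 99.9 CPM (84.0 to 118). LGR4, which binds the same ligands, went the other way, at 108 CPM (90.0 to 129.5) and 134 CPM (124 to 146) in CTRL and at 99.9 CPM (80.9 to 122) and 149.8 CPM (130 to 171.5) in OTX2CRISPR. The log2 ratios of multipotent over restricted RPC-like cells were 1.44 (1.18 to 1.69) and 1.12 (0.81 to 1.44) for LGR5, and -0.31 (-0.61 to -0.02) and -0.58 (-0.95 to -0.23) for LGR4. In both libraries the intervals of these receptors lay on opposite sides of 0, that of LGR4 in CTRL only just. Over the alternative clusterings LGR4 in CTRL was at 107 to 109 CPM in multipotent and 125 to 134 CPM in restricted RPC-like cells. Intervals of that ratio were not computed for those clusterings.

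TCF7, TCF7L1 and TCF7L2, factors that bind DNA and recruit beta-catenin, were higher in multipotent than in restricted RPC-like cells, with intervals of the ratio above 0 in both libraries. TCF7L1, known mainly as a repressor, was at 43.0 against 17.6 CPM in CTRL and at 53.1 against 15.0 CPM in OTX2CRISPR. TCF7L2 was at 109 against 68.8 CPM and at 128 against 77.0 CPM, and TCF7 was at 102 against 71.2 CPM and at 94.7 against 65.6 CPM. Beta-catenin and APC leaned towards restricted RPC-like cells. CTNNB1 was at 149 against 183 CPM in CTRL, with a log2 ratio of -0.30 (-0.55 to -0.06), and at 167 against 184 CPM in OTX2CRISPR. APC was at 50.2 against 57.6 CPM in CTRL and at 39.5 against 60.6 CPM in OTX2CRISPR, where the log2 ratio was -0.62 (-1.21 to -0.05).

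Over all genes with enough UMIs in the progenitors, 12 of 24 were past the fold towards multipotent RPC-like cells in CTRL, beside 12.2% of all genes, and 1 was past it towards restricted RPC-like cells, beside 9.27%. In OTX2CRISPR, 7 of 17 were past the fold towards multipotent RPC-like cells, beside 9.72% of all genes, and 0 towards restricted RPC-like cells, beside 11.2%. The median log2 ratio was 0.99 for the pathway genes and 0.07 for all genes in CTRL, and 0.83 against -0.03 in OTX2CRISPR. Several genes with few UMIs were among those past the fold and are named after their values were seen, as are all genes below that have under 300 UMIs, except RSPO4 and RSPO1. RSPO2, an R-spondin, had 16 UMIs in multipotent and 4 in restricted RPC-like cells of CTRL and 14 and 0 in OTX2CRISPR. The co-receptor LRP5 was at 31.4 CPM against 5.40 CPM in CTRL and at 19.8 against 9.99 CPM in OTX2CRISPR. WNT5A, LGR6 and AXIN2, a feedback target of the pathway, were past the fold in CTRL on 10 to 12 UMIs in multipotent RPC-like cells. SFRP4 was the gene past the fold towards restricted RPC-like cells, with 24 UMIs there and 0 in multipotent RPC-like cells, where 3 counts would be 2.69 CPM.

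**Figure D2:**
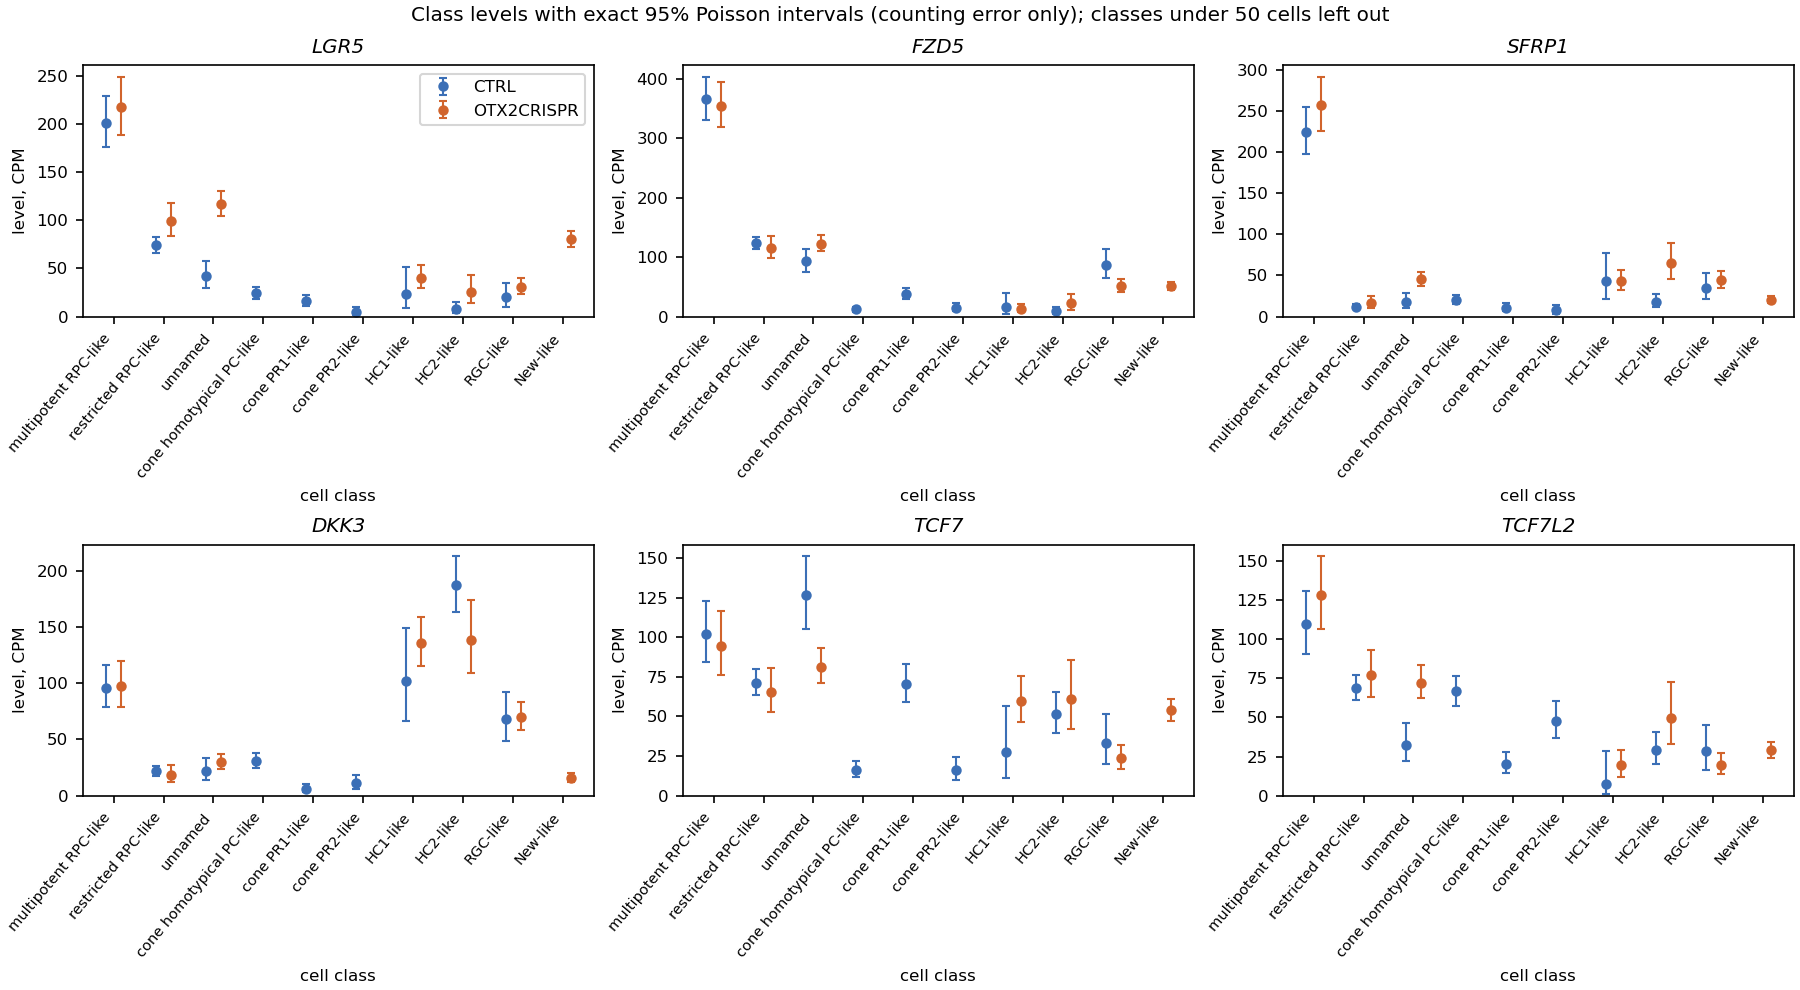
Levels in CPM (vertical axis, linear, from 0) of 6 genes in each cell class (horizontal axis) of the CTRL library (blue) and the OTX2CRISPR library (orange), with exact 95% Poisson intervals that cover counting error only. LGR5, FZD5 and SFRP1 peak in multipotent RPC-like cells, DKK3 also reaches 187 CPM in CTRL HC2-like cells, and TCF7 is at 70.5 CPM in cone PR1-like but 16.3 CPM in cone PR2-like cells.

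WNT signalling is known to act at the ciliary margin, so genes of that margin were read in the same cells. The 6 genes of the list (BMP7, COL9A1, CYP1B1, MSX1, ZIC1 and ZIC2) summed to 1019 CPM in CTRL and 854 CPM in OTX2CRISPR multipotent RPC-like cells, against 125 CPM in the lowest class of CTRL and 206 CPM in that of OTX2CRISPR. Most of this came from CYP1B1, at 714 CPM in CTRL multipotent RPC-like cells, while COL9A1 and MSX1 had 3 and 9 UMIs in the whole library. ZIC1 was also highest in multipotent RPC-like cells of CTRL, at 10.8 CPM. ZIC2, with 3936 UMIs in CTRL, was highest in restricted RPC-like cells, at 401 CPM. BMP7 was highest in cone homotypical PC-like cells, at 77.2 CPM. The sum thus does not show a shared pattern of the list. Whether margin cells contribute to these levels was not tested.

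Cone classes could be compared in the CTRL library. TCF7 and TCF7L2 differed between the cone types. TCF7 was at 70.5 CPM (59.4 to 83.1) in cone PR1-like cells, 16.3 CPM (10.2 to 24.7) in cone PR2-like cells and 16.5 CPM (12.2 to 21.8) in cone homotypical PC-like cells. TCF7L2 was lowest in cone PR1-like cells, at 20.4 CPM (14.6 to 27.6), 47.5 CPM (36.5 to 60.6) and 66.6 CPM (57.6 to 76.7). The log2 ratio of cone PR1-like over cone PR2-like cells was 2.11 (1.46 to 2.83) for TCF7 and -1.22 (-1.82 to -0.63) for TCF7L2. As a result there were 0.289 TCF7L2 UMIs per TCF7 UMI in cone PR1-like cells, 2.91 in cone PR2-like cells and 4.04 in cone homotypical PC-like cells. Thinned to 1000 UMIs, 6.92% (5.35 to 8.78%) of cone PR1-like cells had a TCF7 UMI, against 0.879% (0.286 to 2.04%) of cone PR2-like and 1.85% (1.08 to 2.95%) of cone homotypical PC-like cells, and 12.7%, 3.47% and 4.86% did without thinning. TCF7L1 did not share this pattern, at 15.9, 17.1 and 16.5 CPM. Summed markers of restricted RPC-like cells were at 1814, 745 and 700 CPM in cone PR1-like, cone PR2-like and cone homotypical PC-like cells. The part of progenitor RNA in the levels of the cone classes was not tested.

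FZD5 was also higher in cone PR1-like cells, at 38.2 CPM (30.2 to 47.8), than in cone PR2-like cells, at 14.1 CPM (8.48 to 22.0), or cone homotypical PC-like cells, at 12.01 CPM (8.37 to 16.7). LGR5 was at 24.0 CPM (18.7 to 30.4) in the dividing cone homotypical PC-like cells, 15.9 CPM (10.9 to 22.4) in cone PR1-like and 4.45 CPM (1.63 to 9.69) in cone PR2-like cells. DKK3 was at 30.5, 5.96 and 11.1 CPM in the same order. Of 19 genes, 3 were past the fold towards cone PR1-like cells over cone PR2-like cells and 2 away from them, beside 14% of all genes in either direction (5.92% higher and 8.05% lower). Of 21 genes, 3 were past it towards and 3 away from cone PR1-like cells compared with cone homotypical PC-like cells, beside 21.8% of all genes (9.86% and 12%). Cone homotypical PC-like over cone PR2-like cells gave 4 and 1 of 21, beside 19.8% (9.47% and 10.3%). TCF7 was highest and TCF7L2 lowest in cone PR1-like cells in each alternative clustering that had the cone PR2-like class, which resolution 0.4 did not, while the order of TCF7 in the other cone classes was not the same in all of them. TCF7 ranged over the alternatives from 64.0 to 79.8 CPM in cone PR1-like, from 15.9 to 19.8 CPM in cone PR2-like and from 15.2 to 17.7 CPM in cone homotypical PC-like cells.

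In horizontal cells DKK3 and RSPO4 had high levels. DKK3 was at 187 CPM (163 to 213) in HC2-like and 102 CPM (66.5 to 149) in HC1-like cells of CTRL, and at 139 CPM (109 to 174) and 135 CPM (115 to 159) in OTX2CRISPR. These classes together held 40.1% of the DKK3 UMIs of CTRL and 36.5% of those of OTX2CRISPR, with 10.0% and 12.7% of all UMIs. Thinned, 13.8% (10.7 to 17.4%) of CTRL and 12.6% (8.37 to 17.9%) of OTX2CRISPR HC2-like cells had a DKK3 UMI, against 0.67% (0.246 to 1.45%) of cone PR1-like cells, and unthinned the shares were 36.0%, 29.5% and 1.33%. Median depths in CTRL were 2725 UMIs in HC2-like and 2112 UMIs in cone PR1-like cells.

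RSPO4, an R-spondin, had its highest levels in horizontal cell classes, at 39.2 CPM (18.8 to 72.1) in HC1-like and 24.5 CPM (16.5 to 34.9) in HC2-like cells of CTRL and at 22.9 CPM (14.9 to 33.5) and 42.5 CPM (26.9 to 63.8) in OTX2CRISPR. In progenitors of CTRL it had no UMI, where 3 counts would be 2.69 CPM in multipotent and 0.705 CPM in restricted RPC-like cells. Horizontal cell classes held 71.4% of its UMIs in CTRL and 47.1% in OTX2CRISPR, where 35.6% were in New-like cells at a level of 8.16 CPM (5.75 to 11.3). RSPO1 also had its highest named class in HC2-like cells, at 8.16 CPM (3.91 to 15.0) in CTRL and 16.6 CPM (7.61 to 31.6) in OTX2CRISPR, from 10 and 9 UMIs. Horizontal cell classes held 11 of the 20 RSPO1 UMIs of CTRL, with 8 in the unnamed cluster, and 15 of the 42 of OTX2CRISPR, with 17 in New-like cells. RSPO2 had 1 UMI in the horizontal classes of both libraries together.

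TCF7L2 was higher in HC2-like than in HC1-like cells, with an interval that excluded 0 only in OTX2CRISPR. It was at 29.4 CPM (20.6 to 40.7) in HC2-like and 7.84 CPM (0.949 to 28.3) in HC1-like cells of CTRL and at 49.9 CPM (32.9 to 72.6) and 19.4 CPM (12.1 to 29.3) in OTX2CRISPR. The log2 ratio was 1.91 (-0.05 to 5.01) in CTRL, from 2 UMIs in HC1-like cells, and 1.37 (0.50 to 2.25) in OTX2CRISPR. Of 12 genes in CTRL, 1 was past the fold towards HC2-like and 2 towards HC1-like cells, beside 20.4% of all genes (8.72% and 11.7%). Of 14 in OTX2CRISPR it was 1 and 1, beside 15% (3.86% and 11.1%).

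RGC-like cells had high APC and LGR4 levels, and TCF7L2 and LGR5 levels below those of restricted RPC-like cells. High APC was not particular to them among the neuron classes. In HC1-like cells it was at 118 and 168 CPM in the CTRL and OTX2CRISPR libraries. Over the alternative clusterings, HC2-like cells had 113 to 115 CPM in CTRL and 129 to 141 CPM in OTX2CRISPR. The cone classes of CTRL had 89.6 to 109 CPM over these clusterings. The named class lowest in TCF7L2 was HC1-like in each library, with 7.84 and 19.4 CPM. For LGR5 it was cone PR2-like in CTRL, with 4.45 CPM, and HC2-like in OTX2CRISPR, with 25.9 CPM. APC was at 141 CPM (113 to 175) in CTRL and 164 CPM (146 to 184) in OTX2CRISPR RGC-like cells, against 57.6 and 60.6 CPM in restricted RPC-like cells. LGR4 was at 161 CPM (131 to 197) and 149.8 CPM (132 to 169), above its level in cone and horizontal classes of the same library. LGR5 was at 19.9 CPM (10.3 to 34.8) and 30.9 CPM (23.2 to 40.2), below both progenitor classes, while LGR4 was not below them. DKK3 levels there were 68.1 and 70.1 CPM. Compared with restricted RPC-like cells, 5 genes were past the fold towards and 8 away from RGC-like cells of 21 in CTRL, and 6 and 8 of 21 in OTX2CRISPR, beside 39.1% and 32.6% of all genes in either direction (21.4% and 19.4% higher, 17.7% and 13.2% lower).

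New-like cells, which were nearly all in the OTX2CRISPR library, shared some levels with progenitors and others with RGC-like cells. LGR5 was at 80.7 CPM (72.7 to 89.4), between restricted RPC-like cells at 99.9 CPM and RGC-like cells at 30.9 CPM of that library. LGR4 was at 149 CPM (138 to 160), and TCF7 at 53.8 CPM (47.3 to 61.0), against 23.6 CPM (17.0 to 31.9) in RGC-like cells. APC was at 133 CPM (123 to 144.5), above restricted RPC-like and below RGC-like cells. TCF7L2 was at 28.9 CPM (24.2 to 34.3) and FZD5 at 51.2 CPM (44.8 to 58.2), the latter equal within counting error to 51.1 CPM in RGC-like cells. DKK3 was at 16.1 CPM (12.6 to 20.2), against 70.1 CPM (58.4 to 83.6) in RGC-like cells. Of 24 genes, 7 were past the fold towards RGC-like cells and 4 towards New-like cells, beside 13.9% of all genes in either direction (6.47% and 7.44%). The log2 ratio of RGC-like over New-like cells was 2.12 (1.70 to 2.56) for DKK3, -1.39 (-1.82 to -0.98) for LGR5, -1.19 (-1.70 to -0.71) for TCF7 and -1.29 (-2.07 to -0.58) for AXIN1. Compared with restricted RPC-like cells, 2 genes were past the fold towards New-like cells and 4 away from them of 23, beside 29.2% of all genes (17.9% and 11.3%).

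Between the libraries as wholes few pathway genes were past the fold. RSPO4 and RSPO1 were the genes past the fold, 2 of 31, both higher in OTX2CRISPR, and 14.4% of all genes were past it, 8.71% higher and 5.67% lower. RSPO4 was at 3.79 CPM (56 UMIs) in CTRL and 7.87 CPM (104 UMIs) in OTX2CRISPR, a log2 ratio of 1.05 (0.57 to 1.55). RSPO1 was at 1.35 CPM (20 UMIs) and 3.18 CPM (42 UMIs), a log2 ratio of 1.23 (0.43 to 2.08). With all deposited barcodes the RSPO4 ratio was 0.95 and no longer past the fold, and with a minimum of 100 UMIs RSPO1 could not be compared. In such sums over a library, fewer cells of a type and less RNA per cell cannot be told apart. The interval lay above 0 for 8 genes and below 0 for 4, and the median log2 ratio was 0.11 for the pathway genes and 0.05 for all genes.

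Among the LGR receptors, LGR5 was at 48.9 CPM in the CTRL and 86.6 CPM in the OTX2CRISPR library, a log2 ratio of 0.82 (0.69 to 0.96), and LGR4 at 94.0 and 129 CPM, a log2 ratio of 0.46 (0.36 to 0.56). Of the inhibitors, SFRP2 was at 13.7 and 24.4 CPM, with a log2 ratio of 0.83 (0.57 to 1.09), SFRP1 was at 31.3 and 49.0 CPM, with 0.64 (0.47 to 0.82), and DKK3 was at 43.1 and 47.6 CPM, with 0.14 (-0.02 to 0.30). Secreted Frizzled-related proteins summed to 52.4 and 82.5 CPM. In the destruction complex, APC was at 83.1 and 116 CPM, a log2 ratio of 0.48 (0.38 to 0.59), and AXIN1, its scaffold protein, at 31.1 and 23.2 CPM, a log2 ratio of -0.42 (-0.63 to -0.21). CTNNB1 was at 171 and 197 CPM, a log2 ratio of 0.20 (0.12 to 0.28). Frizzled receptors as a family had a log2 ratio of -0.09 (-0.17 to -0.01) for their sum. TCF/LEF factors summed to 132 and 130.5 CPM, a log2 ratio of -0.01 (-0.11 to 0.08).

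The libraries differed in their makeup, which enters each of these values. Cone classes held 42.5% of UMIs in CTRL and 1.68% in OTX2CRISPR, New-like cells 0.643% and 34.3%, the unnamed cluster 6.42% and 19.9% and restricted RPC-like cells 28.8% and 10.6%. The shares of the unnamed cluster and of restricted RPC-like cells depend on the clustering. At resolution 1.0, 26 CTRL and 616 OTX2CRISPR cells of the unnamed cluster took the name restricted RPC-like. At resolution 0.4 the restricted RPC-like class had 1382 CTRL and 1194 OTX2CRISPR cells. An expected OTX2CRISPR level was computed from CTRL class levels weighted by the OTX2CRISPR share of UMIs in each class, with the level of all CTRL cells taken for New-like cells. The observed level was within 0.5 of the expected level on the log2 scale for 24 of 31 genes, as it was for 73.5% of all genes. RSPO4 and RSPO1 had expected log2 ratios of 0.85 and 1.07, near those observed, but single classes did not match. The unnamed cluster held 8 of the 20 RSPO1 UMIs of CTRL and 7 of the 42 of OTX2CRISPR. New-like cells, entered at the level of all CTRL cells, held 17 of these 42 and 37 of the 104 RSPO4 UMIs. RSPO4 was lower in OTX2CRISPR than in CTRL HC1-like cells (22.9 against 39.2 CPM) and higher in HC2-like cells (42.5 against 24.5 CPM). Such differences can cancel in a sum over classes, and the part of makeup in these rises was not tested. For LGR5 the expected log2 ratio was 0.12 and the observed 0.82, a gap of 0.71, and for SFRP2 the gap was 0.57. The unnamed cluster entered these expected values at its CTRL level, although it held different cells in the libraries. The part of that difference in the gaps was not tested. In OTX2CRISPR, New-like cells held 32.0% of LGR5 UMIs and 34.3% of all UMIs, and the unnamed cluster held 26.9% and 19.9%. AXIN1 was below its expected level, with a gap of -0.52.

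**Figure D3:**
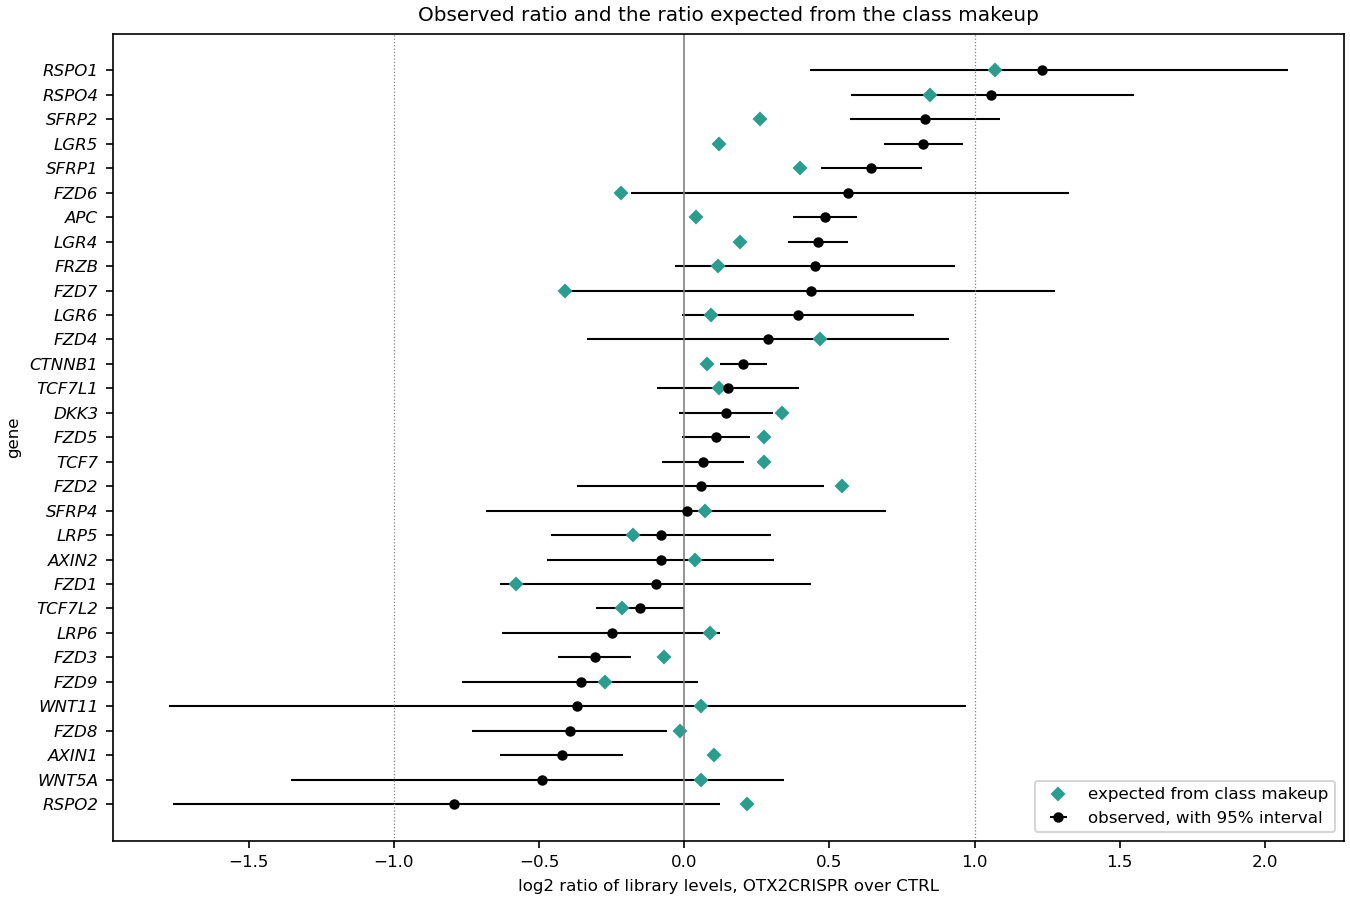
Log2 ratio of OTX2CRISPR over CTRL library levels (horizontal axis) for the 31 genes with at least 20 UMIs (vertical axis, ordered by the observed ratio). Black points with bars are the observed ratios with 95% intervals, green diamonds are ratios expected from class makeup, and dotted lines mark a 2-fold difference. RSPO4 and RSPO1 lie near their diamonds, although single classes, on few UMIs, were further from their CTRL levels. LGR5 lies 0.71 above its diamond and AXIN1 below its own. The unnamed cluster, whose cells differed between the libraries, enters every diamond at its CTRL level.

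Within the progenitor classes as clustered here no pathway gene was past the fold between the libraries. In multipotent RPC-like cells it was 0 of 18, beside 4.03% of all genes (1.37% higher and 2.66% lower), and the interval of every gene included 0. Among family sums it excluded 0 for the ligands, lower in OTX2CRISPR as given above, and for secreted Frizzled-related proteins. The latter summed to 279 CPM in CTRL and 338 CPM in OTX2CRISPR multipotent RPC-like cells, a log2 ratio of 0.28 (0.05 to 0.51). Levels of SFRP1 there were 225 and 257 CPM in CTRL and OTX2CRISPR, those of FZD5 366 and 355 CPM, and those of LGR5 202 and 217 CPM. In restricted RPC-like cells it was 0 of 21, beside 8.91% of all genes (4.83% higher and 4.08% lower). This count depended on the clustering: it was 3 at resolution 0.4 (FZD1, FZD7 and AXIN2) and 2 at resolution 1.0 (FZD1 and FZD7), and it was 1 (FZD7) with all variable genes kept and 1 (FZD7) without regression of cell cycle scores, all higher in OTX2CRISPR. The gene intervals that excluded 0 were those of LGR5, at 74.5 and 99.9 CPM with a log2 ratio of 0.42 (0.13 to 0.71), and of AXIN1, at 35.2 and 21.4 CPM with -0.72 (-1.34 to -0.15). Among family sums they were those of LGR receptors, with 0.26 (0.08 to 0.44), and of secreted Frizzled-related proteins, with 0.45 (0.05 to 0.85). Over the alternative clusterings the log2 ratio in restricted RPC-like cells was from 0.38 to 0.67 for LGR5. For AXIN1 it was from -0.63 to -0.40, closer to 0 than the main value. RBP4 levels in restricted RPC-like cells were 234 CPM in CTRL and 88.5 CPM in OTX2CRISPR. Of these cells 86.5% in CTRL and 75.7% in OTX2CRISPR were in S or G2/M phase, and their median depths were 3202 and 2530 UMIs. The part of phase and depth in the ratios was not tested.

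**Figure D4:**
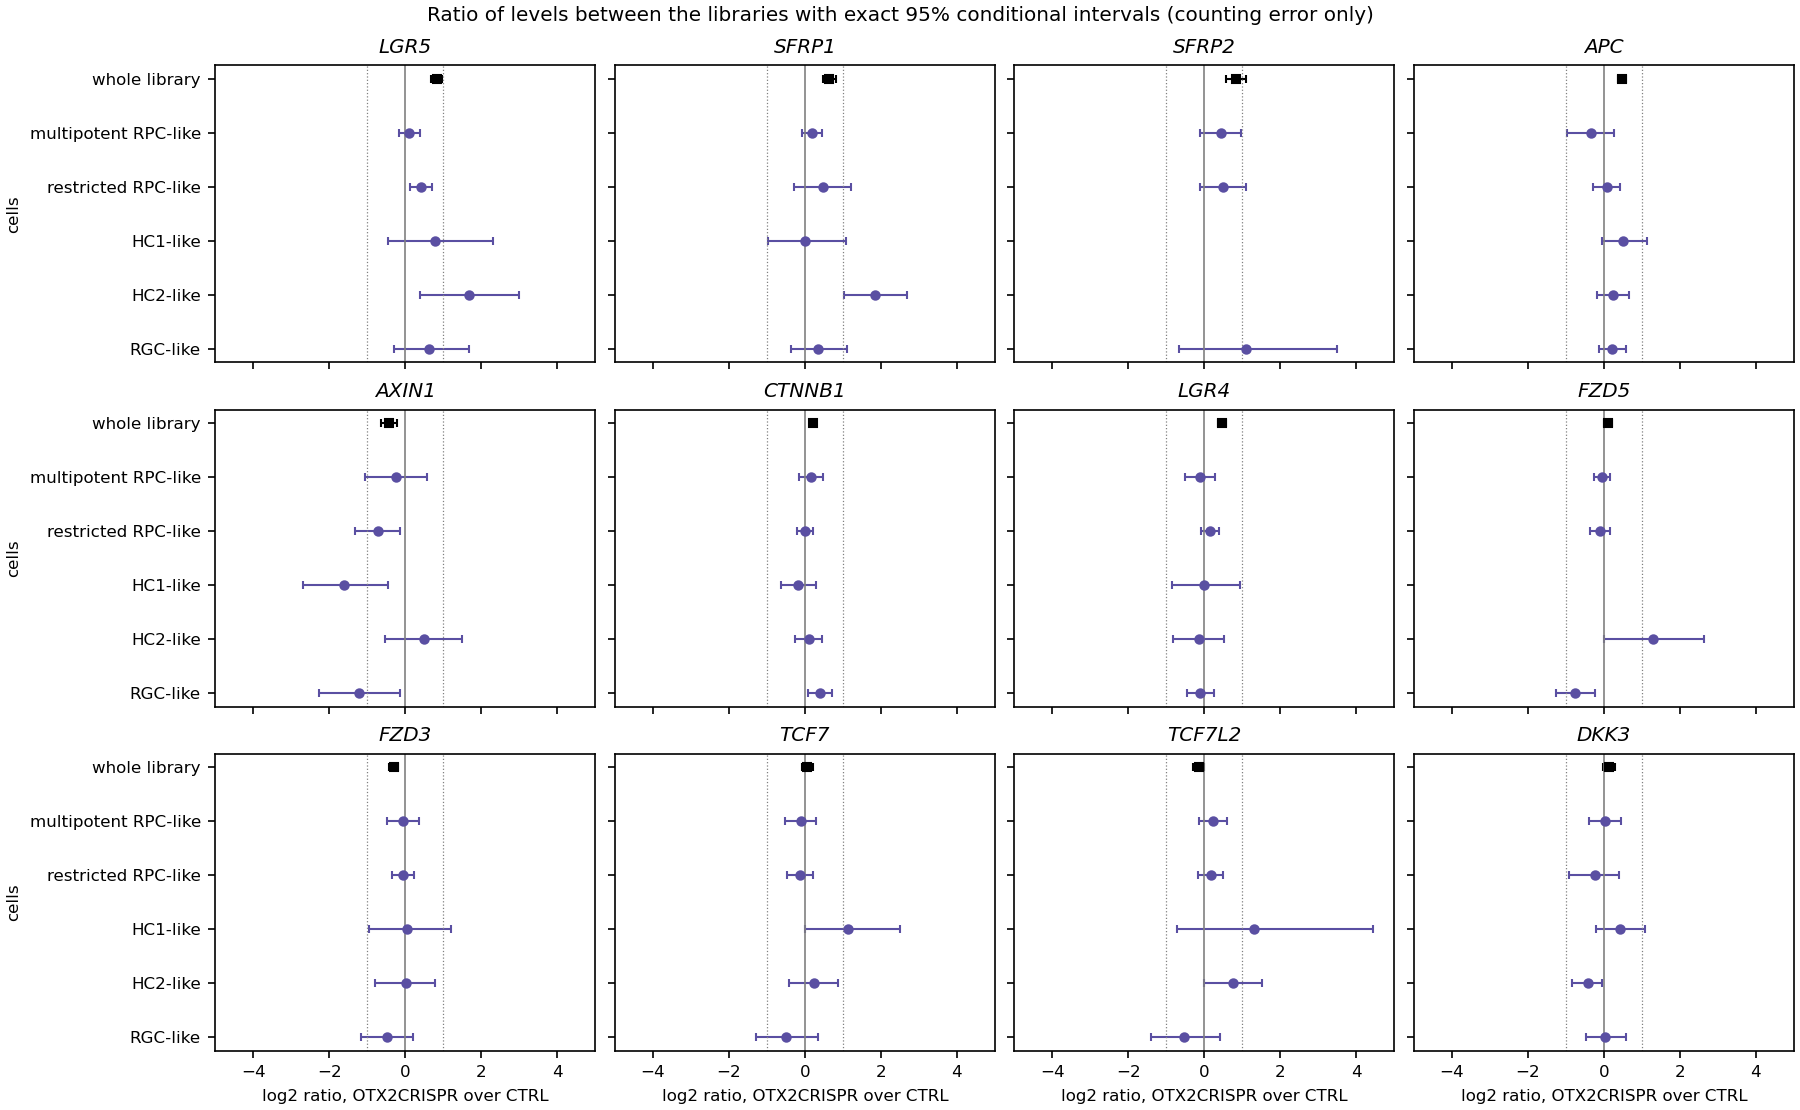
Log2 ratio of OTX2CRISPR over CTRL levels (horizontal axis) for 12 genes in the whole libraries (black squares) and in 5 cell classes (purple circles), with exact 95% intervals for counting error only; dotted lines mark a 2-fold difference and classes with under 20 UMIs are left out. LGR5 points lie right of 0 in all 5 classes, SFRP1 in HC2-like cells lies at 1.85, and AXIN1 points lie left of 0 in 4 of 5 classes.

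In the neurons some ratios were past the fold, on few UMIs. In HC2-like cells SFRP1 was at 18.0 CPM (11.3 to 27.2) in CTRL and 64.7 CPM (45.1 to 90.0) in OTX2CRISPR, a log2 ratio of 1.85 (1.04 to 2.69) from 22 and 35 UMIs. Thinned, 1.17% (0.38 to 2.71%) and 5.80% (3.03 to 9.91%) of these cells had a SFRP1 UMI, and 5.05% and 11.9% did unthinned, at median depths of 2725 and 2462 UMIs. LGR5 there was at 8.16 CPM (10 UMIs) and 25.9 CPM (14 UMIs), a log2 ratio of 1.67 (0.39 to 2.997), and FZD5 at 8.97 and 22.2 CPM, a log2 ratio of 1.31 (-0.00 to 2.63). The FZD5 ratio was 0.53 without regression of the cell cycle scores, while over the clusterings tried that of SFRP1 was from 1.83 to 1.86. These were 3 of 15 genes, beside 7.68% of all genes (4.6% higher and 3.08% lower). DKK3 was lower in OTX2CRISPR HC2-like cells, with a log2 ratio of -0.43 (-0.83 to -0.05).

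Since SFRP1, LGR5 and FZD5 were highest in multipotent RPC-like cells, the markers of that class were read beside them in HC2-like cells. The summed level of its 8 markers was 533 CPM in CTRL and 469 CPM in OTX2CRISPR HC2-like cells, against 13028 and 14395 CPM in multipotent RPC-like cells. FABP7, the marker with most UMIs there, was at 303 and 172 CPM in HC2-like cells, a log2 ratio of -0.82 (-1.16 to -0.48). The other 7 together went the other way, at 230.0 and 298 CPM, a log2 ratio of 0.37 (0.08 to 0.66), but not each of them did. HES1 was at 57.1 and 120.1 CPM and FGFBP3 at 19.6 and 46.2 CPM, with intervals of the ratio above 0. COL2A1 was lower, at 114 and 92.4 CPM, and SOX9 had 7 and 0 UMIs. NR2E1, ID1 and METRN had log2 ratios from 0.18 to 0.33. The intervals of COL2A1, SOX9, NR2E1, ID1 and METRN included 0. The summed markers of cone PR2-like cells were at 256 and 20.3 CPM in HC2-like cells. Summed markers of other classes were higher in OTX2CRISPR HC2-like cells. Those of restricted RPC-like cells were at 599 and 841 CPM, of RGC-like cells at 22.8 and 163 CPM and of New-like cells at 544 and 1103 CPM. The part of RNA of progenitors, cones and other classes in these ratios was not tested.

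In HC1-like cells 3 of 14 genes were past the fold between the libraries, beside 10.3% of all genes (7.78% higher and 2.55% lower). TCF7 was at 27.4 CPM (7 UMIs) and 59.8 CPM (68 UMIs), a log2 ratio of 1.13 (0.00 to 2.49), and TCF7L2 had 2 and 22 UMIs. AXIN1 was at 50.9 CPM (13 UMIs) and 16.7 CPM (19 UMIs), a log2 ratio of -1.61 (-2.70 to -0.47). In RGC-like cells it was 3 of 17, beside 8.34% of all genes (5.97% higher and 2.37% lower), with SFRP2 and FRZB from 3 and 1 UMIs in CTRL and AXIN1 at 24.9 CPM (15 UMIs) and 10.7 CPM (19 UMIs), a log2 ratio of -1.23 (-2.28 to -0.15). FZD5 in RGC-like cells was at 86.4 CPM (64.5 to 113) and 51.1 CPM (41.1 to 62.7), a log2 ratio of -0.76 (-1.27 to -0.24), and CTNNB1 was at 175 and 228 CPM, a log2 ratio of 0.39 (0.08 to 0.71). RBP4 levels were 278 and 21.1 CPM in HC1-like cells, and 78.1 and 4.49 CPM in RGC-like cells. The content of RGC-like cells also differed between the libraries. Their summed RGC markers were at 3524 and 3417 CPM, but New markers were at 853 and 2444 CPM. HC1 markers, which share ONECUT3 with the New markers, were at 259 and 789 CPM there. The part of this difference in the RGC-like ratios was not tested.

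Over the 5 named classes that could be compared, LGR5 was higher in OTX2CRISPR in 5 of 5, with log2 ratios from 0.11 to 1.67, and 2 intervals lay above 0. SFRP1 was higher in 4 and equal in HC1-like cells, from 0.00 to 1.85, with 1 interval above 0, and its ratio in HC1-like cells was from -0.16 to 0.00 over the alternative clusterings. AXIN1 was lower in 4 of 5, from -1.61 to 0.50, with 3 intervals below 0. Over the alternative clusterings, however, its ratio was from -0.37 to 0.07 in multipotent and from -0.63 to -0.40 in restricted RPC-like cells. LGR4, higher in the OTX2CRISPR library as a whole, had log2 ratios from -0.14 to 0.16 in these classes, with no interval that excluded 0. Cells of all classes came from the same 2 libraries, so classes are not replicates of the condition.

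The unnamed cluster held different cells in the libraries, and its ratios were given with a finer clustering. LGR5, TCF7L2 and SFRP1 were past the fold there, 3 of 20 genes, beside 14.6% of all genes (11.5% higher and 3.15% lower), with log2 ratios of 1.47, 1.14 and 1.34. At resolution 1.0 it split mainly into a group of 26 CTRL and 616 OTX2CRISPR cells, which took the name restricted RPC-like, and a group of 306 and 292 cells, which stayed unnamed. In the second of these LGR5 was at 43.0 CPM (30.3 to 59.3) in CTRL and 112 CPM (90.2 to 139) in OTX2CRISPR cells. SFRP1 was at 16.3 CPM (8.89 to 27.3) and 93.3 CPM (73.1 to 117), TCF7L2 at 34.9 CPM (23.5 to 49.8) and 98.4 CPM (77.7 to 123) and DKK3 at 19.8 CPM (11.5 to 31.6) and 66.5 CPM (49.6 to 87.2). OTX2 there was at 996 and 254 CPM, and RBP4 at 404 and 40.9 CPM. Against restricted RPC-like cells, 4 of 22 genes in CTRL and 1 of 20 in OTX2CRISPR were past the fold in the unnamed cluster, beside 21.5% (6.97% higher and 14.5% lower) and 8.58% (4.37% and 4.2%) of all genes.

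Genes of the pathway outside these families were read in the whole libraries. Among proteins for WNT secretion and extracellular control, 9 of 12 in the matrices had 20 or more UMIs, of which 3 were past the fold higher and 3 lower in OTX2CRISPR, beside 8.71% and 5.67% of all genes. SOSTDC1, a secreted antagonist of WNT and BMP signals, was at 24.9 CPM (368 UMIs) and 4.01 CPM (53 UMIs), and reached 60.1 CPM in CTRL cone PR1-like cells. WLS, which carries WNT proteins to the cell surface, had 27 and 5 UMIs and NOTUM, an enzyme that inactivates WNT proteins, 36 and 15. KREMEN1, a Dickkopf receptor, had 9 and 18 UMIs, the glypican GPC3 had 15 and 40, and TRABD2A, a protease that cleaves WNT proteins, had 14 and 44. Among co-receptors and planar polarity genes, 1 of 9 was past the fold higher and 1 lower, near the shares of all genes, 8.71% and 5.67%. CELSR2, a cadherin of planar polarity, was at 90.8 and 193 CPM and PRICKLE2 at 4.87 and 2.12 CPM.

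Among 17 genes of the intracellular machinery, 2 were past the fold, both higher in OTX2CRISPR, near the 8.71% of all genes. AMER1, which brings APC to the plasma membrane, was at 45.5 and 167 CPM, a log2 ratio of 1.88 (1.751 to 2.003), and at 238 CPM in CTRL RGC-like cells. APC2, a neural relative of APC, had 21 and 51 UMIs. Of 10 commonly used target genes with enough UMIs, 1 was past the fold higher and 2 lower, beside 8.71% and 5.67% of all genes, and the median log2 ratio was -0.01. NKD1, a feedback inhibitor that binds Dishevelled, was at 26.5 and 78.7 CPM, a log2 ratio of 1.57 (1.40 to 1.74). SP5, a target that represses transcription, was at 3.32 and 0.833 CPM, and NOTUM is also on this list. Within the fold, AXIN2 was at 8.33 and 7.87 CPM and CCND1, the listed target with most UMIs, at 110 and 179 CPM. The log2 ratio of CCND1 was 0.70 (0.61 to 0.79). The 12 listed targets in the matrices summed to 273 and 431 CPM. Of the genes on that list, 4 (AXIN2, LEF1, LGR5 and TCF7) are also members of the families above.

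Markers of other tissues near the retina were read beside these values. Pigment epithelium markers summed to 25.0 CPM in CTRL and 21.1 CPM in OTX2CRISPR. TYRP1, DCT and OCA2 were past the fold lower, 3 of 6 with enough UMIs beside 5.67% of all genes, at 1.96 and 0.303, 2.91 and 0.833, and 2.30 and 0.454 CPM, and MLANA had no UMI. RPE65 was lower within the fold, at 2.37 and 1.21 CPM. PMEL was higher, at 7.51 and 11.1 CPM, a log2 ratio of 0.56 (0.19 to 0.93), and MITF was at 7.92 and 7.27 CPM. In CTRL, TYRP1 was highest in cone PR1-like cells, at 5.46 CPM, and DCT in cone PR2-like cells, at 8.90 CPM. PMEL and MITF were highest in RGC-like cells of CTRL, at 31.6 and 24.9 CPM. Lens markers summed to 149 and 267 CPM, mostly from CRYBA4, at 128 and 238 CPM, and LIM2, at 19.4 and 27.2 CPM. Their sum was highest in HC2-like cells of both libraries, at 476 and 617 CPM. In CTRL, CRYBA4 and LIM2 were each highest in HC2-like cells, at 403 and 71.8 CPM, so these sums do not measure lens tissue. CRYBB1 was past the fold with 7 and 15 UMIs, and CRYAA and CRYBB2 were at 0. Erythroid markers were at 0.271 and 0.530 CPM, microglia and leukocyte markers at 2.84 and 1.74 CPM, mesenchyme markers at 2.84 and 3.26 CPM with TWIST1, PRRX1 and LUM at 0, and endothelial markers at 16.3 and 17.3 CPM with CDH5 and TIE1 at 0.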

How the data were processed

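GFP-positive cells of 1 CTRL and 1 OTX2CRISPR pool of chick retinas were measured on the 10X Chromium platform. The authors aligned reads to GRCg6a with the 10X pipeline (Cell Ranger, per the submitters' processing notes; the file header gives software version 3.0.2) and deposited UMI counts per gene and barcode without normalization. The matrices hold 5128 CTRL and 4953 OTX2CRISPR barcodes with 15177210 and 13366081 UMIs, slightly more barcodes than the cell numbers stated in the methods.

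Following the limits in the study's source code, a cell entered when it had between 200 and 2500 genes, with up to 0.4% of UMIs in 16 mitochondria-related and up to 50% in 80 ribosomal genes. They were clustered with R 4.3.3 and Seurat 5.3.0 on 33 principal components, with 30 neighbours and resolution 0.6, after regression of UMIs, those shares and cell cycle scores. Variable genes had a mean of 0.1 to 8 and a dispersion of at least 1. WNT pathway genes, the other lists and the markers were left out of them, so 603 of 670 were used. A cluster took the class with the highest mean log2 ratio of markers, with at least 3 markers at a log2 ratio of 1 or more. Where fewer than 50% of the cells of a cluster had their best score in that class, it got no name; this limit, for cone clusters taken over all cone classes, was chosen with the values in view. A cone cluster was named cone homotypical PC where the S and G2/M phases together made up 50% of it or more. Class names are rebuilt here and the authors' cell labels were not used. Some markers were named by the study from these cells, so a match is not independent evidence. No doublet caller was run, and doublets were kept.

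Levels, ratios and shares were computed with Python 3.11.15, numpy 2.4.6, scipy 1.17.1 and pandas 2.3.3, and plotted with matplotlib 3.10.9. Thinning to 1000 UMIs left out 57 CTRL and 92 OTX2CRISPR cells. The computation of ratios was tested on simulated counts. By rule, genes were named with at least 300 UMIs or when past the fold in the whole library, and genes of the other lists only in the latter case; any further gene was named after its values were seen. The genes and lists were chosen with earlier results of these data known. Alternatives were other scalings, minimum counts, folds, clusterings, depths and cell filters. Of the 54 symbols, 53 matched the RefSeq gene table, which is of another build, so no coordinates are given.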

Additional observations from a re-analysis of the deposited data

How the results depend on the processing

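No paired analysis was possible because there is 1 library per condition. Of the counts of genes past the fold and of genes highest in a class, 29 values under an alternative stayed within 1.5 times the main value and 15 did not. Of the single-gene ratios and shares, 186 moved by less than counting error and 18 by more, and 0 called values changed sign. In the whole library, 2 genes were past the fold. A minimum of 100 UMIs gave 1, all deposited barcodes gave 1, and a fold of 1.5, chosen after seeing the data, gave 6, of which 5 were higher. In multipotent RPC-like cells the count was 0. It was 1 with cells weighed equally, 1 with a fold of 1.5, 1 in G2/M cells only (both chosen after seeing the data) and 6 with no minimum beyond 1 UMI in each library. In restricted RPC-like cells the count was 0. It was 1 with cells weighed equally, 1 with all variable genes kept, 1 without regression of cell cycle scores, 2 at resolution 1.0, 3 at resolution 0.4 and 5 with no minimum. It was 2 with a fold of 1.5 and 2 with the unnamed cluster joined, both chosen after seeing the data. The cause was not tested, beyond the lower minimum and fold letting in more genes. The count of genes near the level expected from makeup went from 24 to 19 of 31 when small classes took their own CTRL level, an alternative chosen after seeing the data. Shares with a UMI depend on depth: for FZD5 in CTRL multipotent RPC-like cells the share was 29.2% at 1000, 50.4% at 2000 UMIs and 59.7% without thinning. Counting intervals do not hold the variation between retinas, which 1 library per condition cannot give.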
